A study of Mus musculus with 6 samples.

Results

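The genes that build apicobasal polarity and the junctions between epithelial cells were followed as a group in mouse tissue that had received a vector carrying Pik3cd. The group was listed by gene name as 38 genes of the Par, Crumbs and Scribble polarity complexes and of tight, adherens and gap junctions, and 37 of them were measured, among the 19505 genes that had a symbol on the array (22206 probe sets). The probe set that stood for a gene was the one with the highest mean over all arrays, and each of the 37 had a single probe set. Ctnnb1 (beta-catenin) was not analysed here, because none of the probe sets used here was paired with its symbol.

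RNA from 6 samples was read on Clariom S mouse arrays, and values are RMA-normalised log2 levels. AAV-control, the 3 arrays numbered 48, 49 and 50, had received the control vector, and AAV-PIK3CD, arrays 51, 52 and 53, the vector carrying mouse Pik3cd, whose product is a catalytic subunit of PI3K that is best known from white blood cells. The animals were male C57BL/6 mice that were given AAV8 vectors as young adults. The liver-specific TBG promoter drove the insert, so that the vector was meant to act in hepatocytes and not in other liver cells. The control insert is EGFP in the description of the plasmids and nothing in that of the arrays and the labels, so the groups may also differ in EGFP. The labels call the tissue tumour and the extracted material cell culture. The study's array methods also name tumours in 1 place, while their heading and the rest of the study describe liver. All 16 measured hepatocyte markers lay above the array median in all controls. Albumin (Alb), the main secreted hepatocyte protein, read 13.19 to 13.27 on the control arrays and at least 13.25 on each AAV-PIK3CD array. Pik3cd itself read 4.66, 4.34 and 4.48 in the controls and 4.78, 5.14 and 4.86 in AAV-PIK3CD. All controls and array 51 lay below the lowest array median (4.81), where background limits any fold. The difference of 0.43 (SE 0.14) did not pass the test across all probe sets (adjusted p = 0.680 by rank products and 0.932 by limma). Each treated array lay above the controls, as in 4.47% of all probe sets. The labels do not say that each sample came from a separate animal, so the spread that limma uses is that between these samples. Rank products takes its p from shuffles of gene order within each array and not from that spread.

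Epithelial cells keep an apical and a basal side apart with 3 sets of proteins that exclude each other from their membranes. The Par proteins (Par3, Par6 and atypical protein kinase C) and the Crumbs proteins (Crumbs, PALS1 and PATJ) mark the apical side, while Scribble, Dlg and Lgl mark the basolateral side. Tight junctions seal the space between cells, adherens junctions hold neighbouring cells together through cadherins and catenins, and gap junctions pass small molecules from cell to cell. In liver the hepatocyte builds its apical surface as the bile canaliculus, a narrow channel sealed by tight junctions on both sides.

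Repressors of the Snail and ZEB families are known to bind the E-box letters CAGGTG (or CACCTG on the other strand) in promoters of junction genes during epithelial to mesenchymal transition. The 250 bases before each annotated start were searched for these letters on both strands in the RefSeq promoter table (GRCm38.p6). Of the 37 members, 30 had such a window and 14 of those (46.7%) held the E-box in at least 1 window, as did 19.4% of the 27025 genes with a window in the table. Counted by window, it was found in 17 of 52 windows of members (32.7%) and in 17.2% of the 32851 windows of all genes. Windows of 1 gene can overlap, and a match is a description of the letters and not a bound site. The windows of Crb3 and Prkcz are shown because these are the polarity genes that the study measured in its cell lines. Those of Ocln and Cldn14 are shown because these members had the largest differences between the groups. Each is printed from 5′ to 3′ on the strand of its gene, with E-boxes in capitals:
Crb3 (chr17:57061951-57062200, plus strand): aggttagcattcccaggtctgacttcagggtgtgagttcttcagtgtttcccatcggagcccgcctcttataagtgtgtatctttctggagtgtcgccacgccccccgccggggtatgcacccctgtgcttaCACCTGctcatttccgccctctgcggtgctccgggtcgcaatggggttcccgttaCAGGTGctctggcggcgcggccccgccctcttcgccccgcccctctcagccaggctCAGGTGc
Prkcz (chr4:155361429-155361678, minus strand): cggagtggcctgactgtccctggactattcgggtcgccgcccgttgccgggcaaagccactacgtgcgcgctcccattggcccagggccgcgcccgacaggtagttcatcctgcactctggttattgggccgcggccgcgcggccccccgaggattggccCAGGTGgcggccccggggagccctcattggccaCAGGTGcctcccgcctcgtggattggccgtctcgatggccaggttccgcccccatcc
Ocln (chr13:100552719-100552968, minus strand): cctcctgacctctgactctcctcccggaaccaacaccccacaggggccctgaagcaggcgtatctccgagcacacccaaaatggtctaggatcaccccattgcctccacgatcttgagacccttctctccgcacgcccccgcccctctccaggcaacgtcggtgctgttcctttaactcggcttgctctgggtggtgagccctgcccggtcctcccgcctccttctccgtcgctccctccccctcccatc
Cldn14 (chr16:93929818-93930067, minus strand): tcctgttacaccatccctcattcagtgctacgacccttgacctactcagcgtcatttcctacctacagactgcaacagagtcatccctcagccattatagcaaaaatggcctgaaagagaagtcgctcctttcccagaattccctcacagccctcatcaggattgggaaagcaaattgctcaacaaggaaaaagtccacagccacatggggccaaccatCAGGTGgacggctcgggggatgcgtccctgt
The Crb3 window held 3 E-boxes, the Prkcz window 2 and the Cldn14 window 1, and the windows with the most E-boxes were printed for these genes. Of the other annotated starts, those of Prkcz had windows with 0 and 1 E-boxes, and both of Cldn14 had 0. The Ocln window printed held 0, while the window of the other annotated Ocln start held 2. Both Crb3 starts lie close together and their windows held the same 3 E-boxes.

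AAV-PIK3CD was set against AAV-control to ask whether supplying this PI3K subunit moved the transcripts of polarity and junction genes in the tissue. No member passed the test across all probe sets. The tight junction protein occludin (Ocln) and the Scribble complex scaffold Dlg5 had the largest positive differences, of 0.45 and 0.37 log2 units. Claudin 14 (Cldn14), a barrier-forming claudin, had the largest negative difference, of -0.51. Other main components of hepatocyte junctions lay between these, from -0.19 (Cldn2) and -0.14 (Gjb2) through -0.08 (Tjp1), -0.04 (Cldn1) and -0.04 (Gjb1) to 0.04 (Cldn3). Over the 37 members the median difference was -0.057, with 24 members lower and 13 higher, beside a median of -0.0067 over all probe sets, of which 51.5% were lower.

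Rank products, the method the study names, compares the ranks of all treated and control pairs. It gave 0 members as higher and 0 as lower at an adjusted p of 0.05, where 0.0045% of all probe sets passed as higher and 0.0315% as lower. This was a separate run with its own shuffles and adjustment, and it called 1 probe set higher and 7 lower. The study reported more upregulated genes from these arrays, so the counts given here are not the study's own. Limma, which fits each gene with a shared estimate of variance, also gave 0 members, with 0.0% of all probe sets called. The lowest adjusted p of a member was 0.341 by rank products and 0.932 by limma. Before adjustment, 4 members (10.8%) had a rank products p under 0.05, where 5.71% of all probe sets did. Of these, Ocln, Cldn7 and Dlg5 were higher (2.86% of all probe sets) and Cldn14 was lower (2.85%). By limma 3 members (Ocln, Dlg5 and Cldn14), or 8.11%, had an unadjusted p under 0.05, where 5.08% of all probe sets did. The methods' t-test gave 0 of the members at that unadjusted level and 4.77% of all probe sets. From these arrays the study also named apical junctions among the functions found by gene set enrichment. By RT-qPCR on the livers it reported an increase of epithelial genes. Neither was repeated here.

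The values of AAV-PIK3CD were all higher than those of the controls in 1 of the 37 members, which was Dlg5, and in 4.47% of all probe sets. They were all lower in 0 members and in 4.97% of all probe sets. For a single gene the exact permutation test of 3 arrays against 3 cannot give a two-sided p under 0.1. The 95% limma intervals of the differences reached from 0.25 to 0.44 log2 units on either side of the estimate. They held 0 in 34 of the 37 members, the others being Ocln, Dlg5 and Cldn14, and all 37 lay within 1 log2 unit of 0. In whole tissue, fewer cells of a type and less RNA per cell cannot be told apart.

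**Figure D1:**
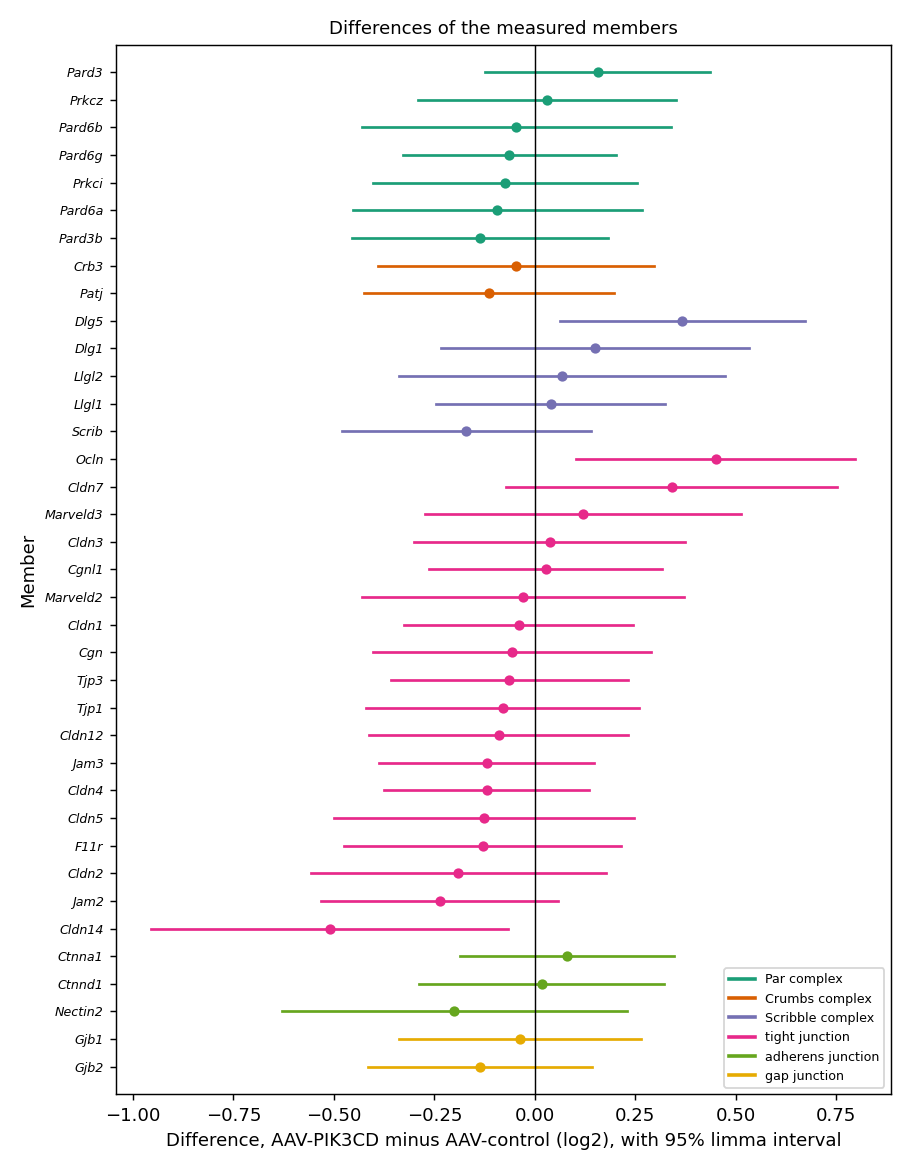
Difference between AAV-PIK3CD and AAV-control (x axis, log2 units) for each of the 37 measured members (y axis), coloured by complex. Points are differences of group means over 3 arrays each and lines are 95% limma intervals, which lie off 0 for Ocln, Dlg5 and Cldn14 before adjustment over all probe sets.

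In the Par complex, which holds the atypical protein kinases C and their scaffolds, 5 of 7 members were lower and 2 higher, with a median difference of -0.063 and 0 past either test. Prkcz, the zeta form of atypical protein kinase C, read 6.35, 6.84 and 6.68 in the controls (arrays 48, 49 and 50) and 6.62, 6.75 and 6.59 in AAV-PIK3CD (arrays 51, 52 and 53). All treated values lay inside the range of the controls. Its difference was 0.03 (SE 0.14), with a 95% interval from -0.29 to 0.35, and it was -0.11 without array 48 and -0.02 without array 52.

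Prkci, the iota form and the closest relative of Prkcz, read 6.90, 6.35 and 6.64 in the controls and 6.54, 6.52 and 6.61 in AAV-PIK3CD. The treated arrays again lay within the controls, and the difference of -0.07 (SE 0.15) was 0.06 without array 48. Of the 2 kinases, Prkcz was lowest and Prkci highest in array 48. Pard3, the scaffold that anchors the complex at the junction, read 8.16, 8.38 and 8.11 in the controls and 8.44, 8.42 and 8.26 in AAV-PIK3CD. It was above the highest control in 2 of the 3 treated arrays, and its difference of 0.16 (SE 0.13) stayed positive with each array left out, from 0.10 to 0.24.

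Its relative Pard3b read 4.39, 4.20 and 3.92 in the controls and 3.91, 4.12 and 4.07 in AAV-PIK3CD, levels below the array median, where background limits any fold. The groups overlapped, and the difference of -0.14 (SE 0.14) was -0.027 without array 48 and -0.26 without array 50. The 3 Par6 adaptors, which hold the kinase and bind Cdc42, differed by -0.09 (Pard6a), -0.05 (Pard6b) and -0.06 (Pard6g). Pard6a differed by 0.055 without array 48 and 0.012 without array 51, and Pard6b by 0.14 without array 50 and 0.035 without array 53. Pard6g lay below the array median in all controls and Pard6a in 2 of them.

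The Crumbs complex gave 2 of 2 measured members lower, with a median difference of -0.080 and 0 past either test. Crb3, the short Crumbs protein of epithelial apical membranes, read 5.69, 5.94 and 6.29 in the controls and 5.86, 5.97 and 5.95 in AAV-PIK3CD. The treated arrays lay close together in the middle of the control range, which reached from array 48 to array 50 (SD 0.06 against 0.30, n = 3 each). The difference was -0.05 (SE 0.15), with a 95% interval from -0.39 to 0.30, and it was 0.11 without array 50. Patj, the multi-PDZ scaffold that links Crumbs to the tight junction, read 6.16, 6.20 and 6.38 in the controls and 6.0, 6.02 and 6.38 in AAV-PIK3CD. Arrays 51 and 52 lay below all controls while array 53 equalled the highest of them, and the difference of -0.11 (SE 0.14) ranged from -0.24 without array 53 to -0.047 without array 50 or 51.

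In the Scribble complex 4 of 5 members were higher, and the median difference of 0.067 was -0.012 without array 51. Dlg5, a large membrane-associated guanylate kinase that takes part in the delivery of cadherins to the cell surface, read 4.80, 4.98 and 5.04 in the controls and 5.53, 5.21 and 5.18 in AAV-PIK3CD. The lowest treated array lay above the highest control, and array 51 was the highest. The difference was 0.37 (SE 0.14), or 1.29-fold (adjusted p = 0.849 by rank products), and ranged from 0.26 without array 51 to 0.43 without array 53. The probe set of Dlg5 was close to the array median, above it in 2 of the 3 controls. Array 51 also carried transcripts of pancreatic acinar cells, with a mean level of 7.19 over 22 marker genes against 3.69 to 3.83 on the other arrays. Muscle markers averaged 4.98 on it against 4.0 to 4.15. Their part in the values of array 51 was not tested.

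Dlg1, the founding Dlg scaffold of the basolateral membrane, read 7.38, 7.23 and 7.49 in the controls and 7.92, 7.36 and 7.27 in AAV-PIK3CD. Only array 51 stood above the controls, and the difference of 0.15 was -0.05 without it. Scrib, the scaffold that gives the complex its name, read 5.57, 5.96 and 5.59 in the controls and 5.44, 5.52 and 5.65 in AAV-PIK3CD. Array 49 was the high control, and without it the difference shrank from -0.17 (SE 0.14) to -0.04. The Lgl proteins, which oppose atypical protein kinase C, differed by 0.04 (Llgl1) and 0.07 (Llgl2). Llgl1 lay below the array median in all controls, and Llgl2, the epithelial form, had the widest control spread of the members (SD 0.40 against 0.09 in AAV-PIK3CD, n = 3 each), from 6.53 in array 48 to 7.33 in array 50. Dlg1, Llgl1 and Llgl2 were described for their values after these were seen.

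**Figure D2:**
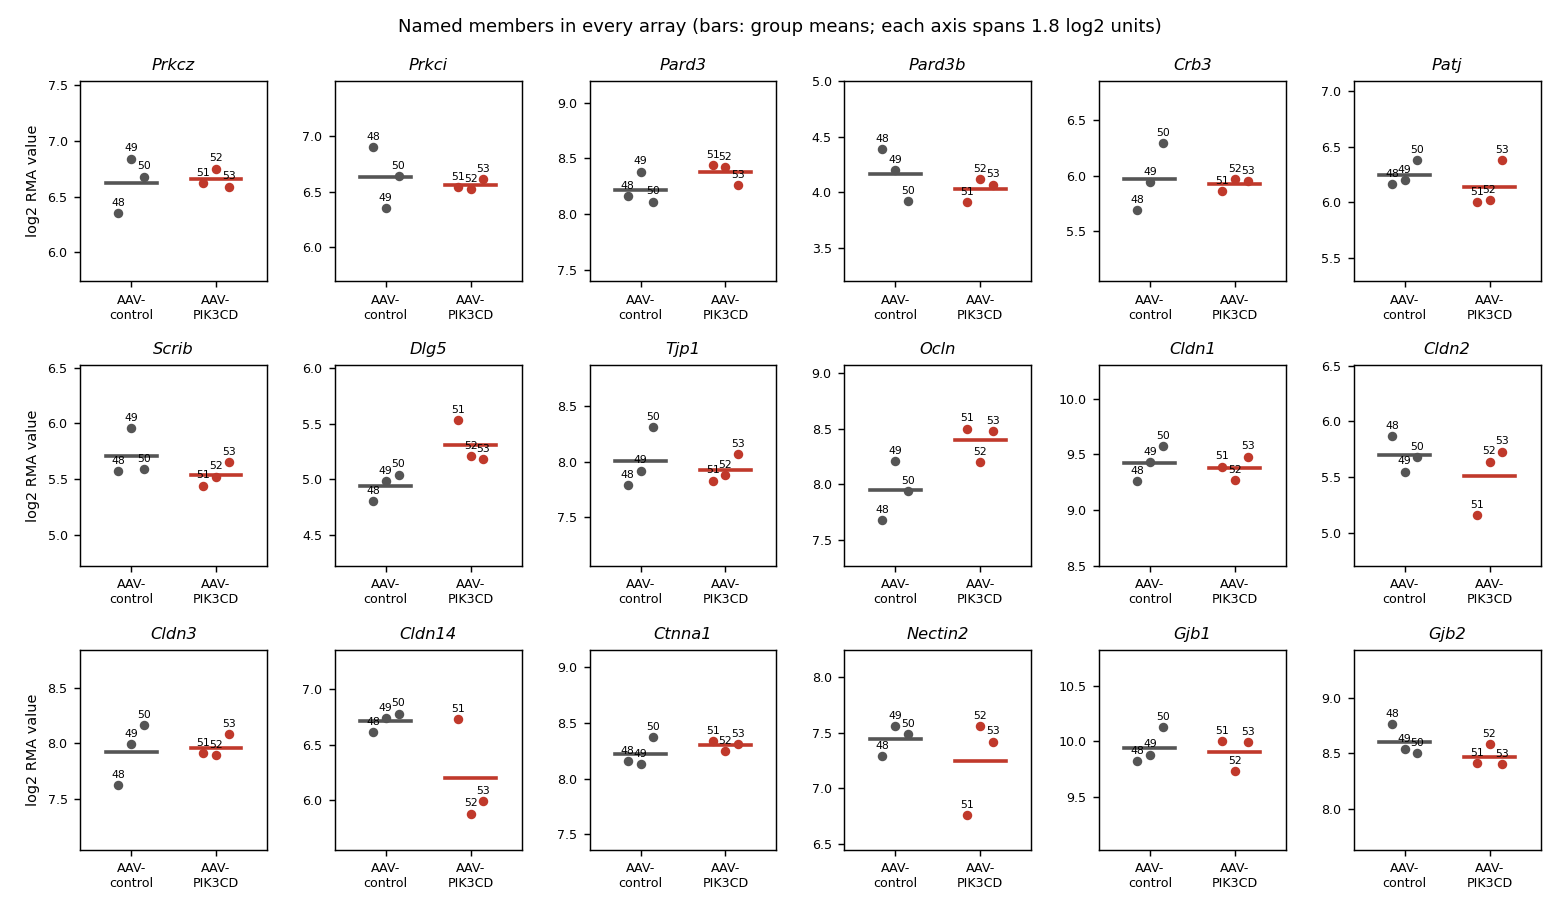
Log2 level (y axis) of 18 members in each of the 6 arrays (points, numbered by array), in AAV-control and AAV-PIK3CD (x axis), with bars at the group means. The groups were apart for Dlg5 alone, and Cldn14 was low in arrays 52 and 53 but not in array 51.

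Tight junctions were the largest group, with 13 of 18 members lower, 5 higher, a median difference of -0.072 and 0 past either test. Occludin (Ocln), a membrane protein with 4 crossings that lines the sealing strands, read 7.68, 8.21 and 7.94 in the controls and 8.50, 8.20 and 8.48 in AAV-PIK3CD. Arrays 51 and 53 lay above all controls, while array 52 fell just short of the highest control, array 49. The difference was 0.45 (SE 0.16), or 1.37-fold, with a 95% interval from 0.10 to 0.80 (adjusted p = 0.704 by rank products). It ranged from 0.32 without array 48, the lowest control, to 0.58 without array 49.

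Of its relatives of the MARVEL family, Marveld2 (tricellulin), the protein of the corners where 3 cells meet, differed by -0.03 (SE 0.18), and Marveld3 by 0.12 (SE 0.18). Marveld3 was highest in array 52 at 7.04, and without that array its difference was -0.09. No test of the difference between these genes was made.

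Among the claudins, which form the paracellular barrier or its pores, 6 of 8 were lower and 2 higher. Cldn14 read 6.61, 6.74 and 6.78 in the controls and 6.73, 5.88 and 5.99 in AAV-PIK3CD. Arrays 52 and 53 lay well below the lowest control, whereas array 51 lay inside the control range (SD 0.09 in the controls and 0.46 in AAV-PIK3CD, n = 3 each). The difference was -0.51 (SE 0.20), or 1.42-fold lower, with a 95% interval from -0.95 to -0.07 (adjusted p = 0.341 by rank products). Without array 51 it was -0.78 and Cldn14 passed rank products (adjusted p = 0.046), while limma still gave an adjusted p of 0.998. The share of all probe sets called in that run is not given here, so the call has no background beside it. Without array 52 the difference was -0.35. Cldn14 is on the list of regulated genes that the study drew from these same arrays, so its direction here is not independent of that choice.

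Cldn1, the broadly expressed sealing claudin of hepatocytes and bile ducts, read 9.26, 9.43 and 9.57 in the controls and 9.39, 9.27 and 9.48 in AAV-PIK3CD. The difference was -0.04 (SE 0.13), with an interval from -0.33 to 0.25. Cldn2, which forms cation and water pores and in rodent liver is found toward the central vein, read 5.87, 5.55 and 5.68 in the controls and 5.16, 5.64 and 5.73 in AAV-PIK3CD. Array 51 alone was below the controls, and without it the difference went from -0.19 to -0.015. Cldn3, a sealing claudin of the canaliculus, read 7.62, 7.99 and 8.16 in the controls and 7.91, 7.89 and 8.08 in AAV-PIK3CD. The treated arrays lay inside the control range, and the difference was 0.04 (SE 0.15). Cldn4 and Cldn12 differed by -0.12 and -0.09.

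Cldn7, a claudin that partners Epcam in duct epithelium, was described for its value after it was seen. It read 3.75, 3.93 and 4.06 in the controls and 4.08, 3.98 and 4.70 in AAV-PIK3CD, below the array median throughout the controls. The difference of 0.34 (SE 0.19) was 0.12 without array 53, the array in which it was highest. Epcam was also highest in array 53, at 4.80 against 3.53 to 3.98 on the other arrays. The mean level of 11 bile duct markers was 4.01 to 4.19 on the control arrays and 4.12 to 4.41 on the AAV-PIK3CD arrays, highest in array 53, and 1 of the 11 lay above the array median in all controls. Their part in the value of Cldn7 was not tested.

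For the proteins under the tight junction membrane, each transcript differed between the groups by less than the SE of its difference. Tjp1 (ZO-1), the scaffold that ties claudins and occludin to actin, read 7.79, 7.92 and 8.31 in the controls and 7.83, 7.88 and 8.07 in AAV-PIK3CD. The groups overlapped throughout, with a difference of -0.08 (SE 0.15) and an interval from -0.42 to 0.26, and without array 50 it was 0.07. Tjp3 (ZO-3) differed by -0.06 (SE 0.13), cingulin (Cgn), which links the junction to actomyosin, by -0.06 (SE 0.16), and its relative Cgnl1 by 0.03 (SE 0.13).

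The junctional adhesion molecules, immunoglobulin-type proteins beside the claudins, were lower in 3 of 3. F11r (JAM-A), the epithelial form, differed by -0.13 (SE 0.16), Jam2 (JAM-B), known from endothelium, by -0.24 (SE 0.13) and Jam3 (JAM-C) by -0.12 (SE 0.12). F11r and Jam2 were lowest in array 51. Without that array F11r differed by -0.0017, so that it kept its sign but little of its size. The difference of Jam2 lay between -0.32 and -0.15 when single arrays were left out. Cldn5, the claudin of endothelial cells, differed by -0.13 (SE 0.17), which was 0.075 without array 50, the control in which it read 6.06. The mean of 15 endothelial markers was 6.46, 6.62 and 6.72 on the controls and 6.55, 6.52 and 6.59 on the AAV-PIK3CD arrays, also highest in array 50, and 13 of the 15 lay above the array median in all controls. How far these cells carried Jam2 and Cldn5 was not tested.

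Of the adherens junction, 2 of 3 measured members were higher, with a median difference of 0.017 and 0 past either test. Ctnna1 (alpha-catenin), which couples the cadherin complex to actin, read 8.16, 8.13 and 8.37 in the controls and 8.34, 8.25 and 8.31 in AAV-PIK3CD. The treated arrays lay inside the control range, and the difference was 0.08 (SE 0.12). Ctnnd1 (p120-catenin), which keeps cadherins at the surface, differed by 0.02 (SE 0.14). Nectin2, an adhesion molecule of early contacts, read 7.29, 7.56 and 7.49 in the controls and 6.76, 7.56 and 7.42 in AAV-PIK3CD. Array 51 alone was low, and its difference of -0.20 (SE 0.19) was 0.04 without that array.

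Both connexins of the hepatocyte gap junction were below their control means, with a median difference of -0.087 and 0 past either test. Gjb1 (Cx32), the main one, read 9.82, 9.88 and 10.13 in the controls and 10, 9.73 and 9.99 in AAV-PIK3CD. Its groups overlapped, and the difference was -0.04 (SE 0.14), with an interval from -0.34 to 0.26. Gjb2 (Cx26), its partner toward the portal vein, read 8.76, 8.54 and 8.50 in the controls and 8.41, 8.58 and 8.40 in AAV-PIK3CD. Arrays 51 and 53 lay below all controls and array 52 did not, and the difference of -0.14 (SE 0.13) lay between -0.20 and -0.06 when single arrays were left out.

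**Figure D3:**
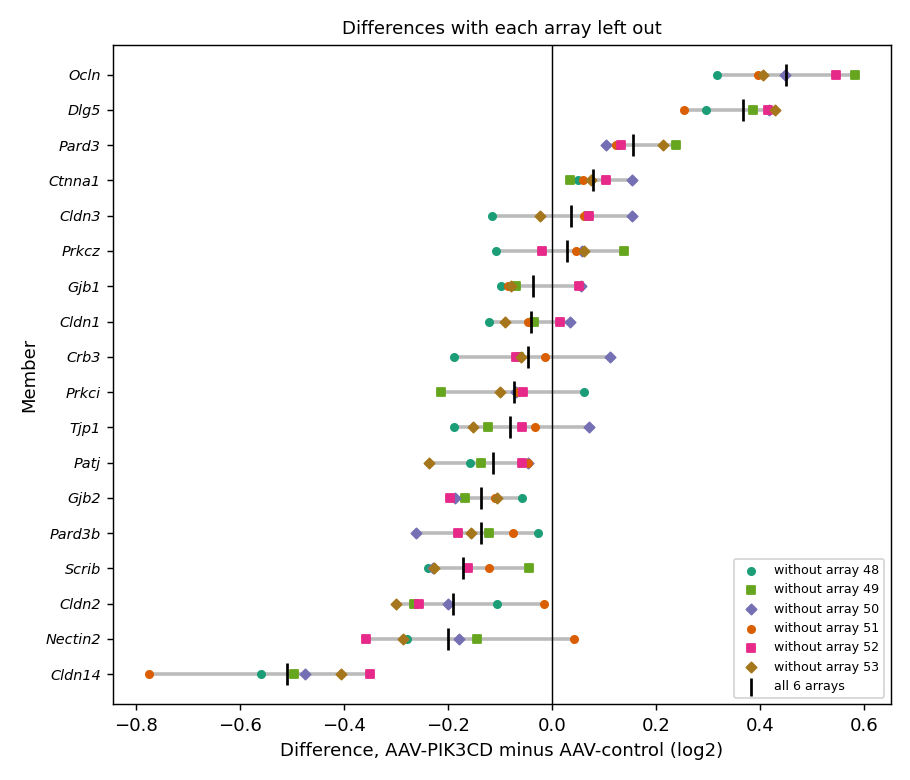
Difference between AAV-PIK3CD and AAV-control (x axis, log2 units) of 18 members (y axis) over all 6 arrays (black bars) and with each array left out in turn (coloured points), joined by a grey line. Ocln, Dlg5 and Cldn14 stayed on 1 side of 0 throughout, while Cldn3, Prkcz, Gjb1, Cldn1, Crb3, Prkci, Tjp1 and Nectin2 crossed it.

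Leaving out each array in turn kept the sign of the difference in 16 of the 37 members (43.2%), and in 52.0% of all probe sets. The absolute difference was over 0.25 in 4 members (Cldn14, Ocln, Dlg5 and Cldn7) and in 12.8% of all probe sets.

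The members also varied together within the control group. Array 48 was the lowest control in 21 of 37 members (56.8%), where this was so for 33.9% of all probe sets, and 14 members (37.8%) were lowest in array 48 and highest in array 50, where 19.7% of all probe sets were. In tight junctions 11 of 18 members and in the Crumbs complex 2 of 2 were lowest in array 48, but 2 of 7 in the Par complex, whose other members included Prkci, Pard3b and Pard6a at their highest there. The median deviation of the members from their control means was -0.12 in array 48 and 0.083 in array 50, and -0.013, -0.080 and -0.0033 in arrays 51, 52 and 53. The SD of the controls was at least 2 times that of AAV-PIK3CD in 11 members (29.7%), Crb3, Llgl2 and Cldn3 among them, and in 20.1% of all probe sets. The reverse held for 8 members, and the median SD over the members was 0.161 in the controls and 0.155 in AAV-PIK3CD. Among the lists of further genes described below, mean levels also rose from array 48 to array 50 for Scribble (5.76, 5.80 and 5.81) and adherens genes (6.34, 6.56 and 6.57). Further gap junction genes ran the other way (4.24, 4.17 and 4.05), and the rest of those lists showed neither order. The endothelial markers were lowest in array 48 and highest in array 50 as well, and so were the Kupffer cell markers (mean level 6.71, 6.83 and 7.07 on the 3 controls). The hepatocyte markers and the other cell type lists did not show that order. The stellate and fibroblast markers ran the other way (6.56, 6.52 and 6.51). The part of any of these cells in this pattern was not tested.

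**Figure D4:**
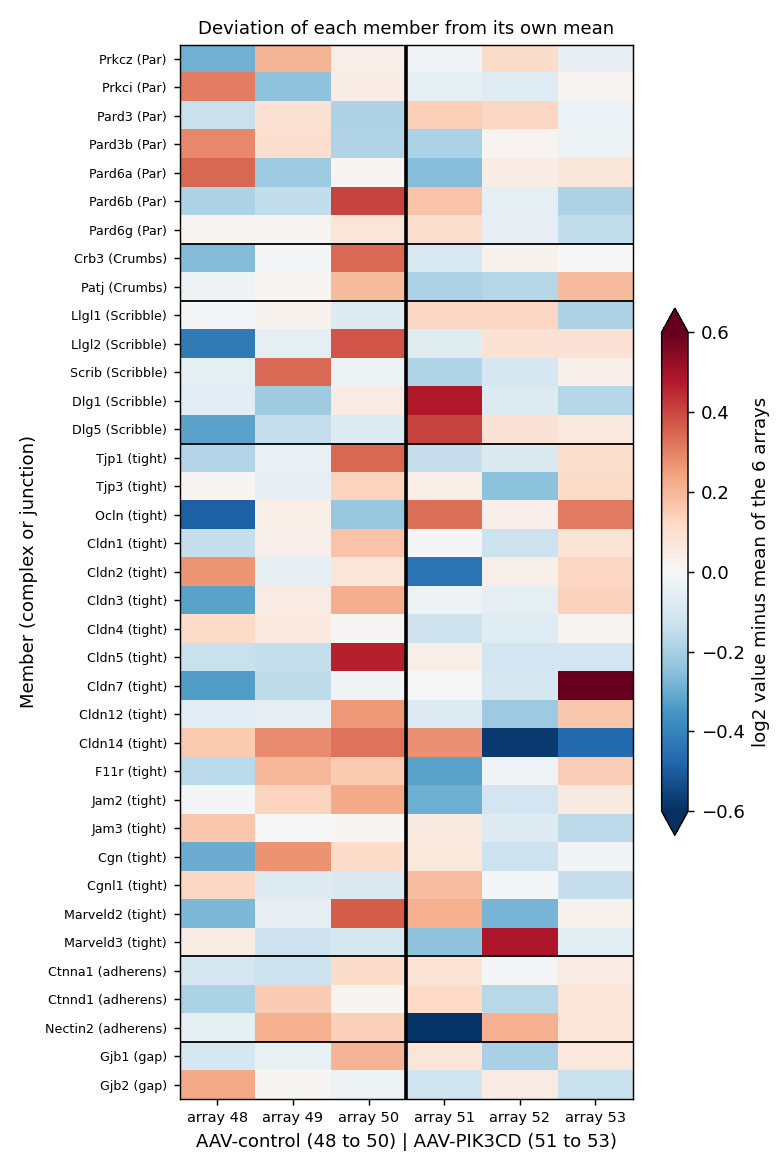
Log2 level of each of the 37 members (rows, grouped by complex) in each of the 6 arrays (columns), as the deviation from the mean of the member over all arrays (colour, log2 units, limited to 0.6 either way). Crb3, Llgl2 and several tight junction members are blue in array 48 and red in array 50, and the treated arrays on the right show single strong colours, such as Nectin2 in array 51 and Cldn7 in array 53.

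Other genes of these structures were read from lists of further Par, Crumbs, Scribble, tight, adherens and gap junction genes, desmosome genes and genes of the apical domain. Of 114 genes listed 106 were measured, and 0 were called by rank products or limma, with an unadjusted p under 0.05 in 3 and 2 of them, where 5.71% and 5.08% of all probe sets had one. Their median difference was 0.012, with 51 lower and 55 higher. All treated values were above the controls in 6 of them and below in 1, where this was so for 4.47% and 4.97% of all probe sets. Afadin (Afdn), which connects nectins to actin, was among the 6, at 6.74, 6.85 and 6.49 in the controls and 7.16, 6.90 and 7.07 in AAV-PIK3CD, a difference of 0.35 (SE 0.14). The single gene below was VE-cadherin (Cdh5), the cadherin of endothelial junctions, at -0.15, named after its values were seen.

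By group, the further Par genes had a median difference of 0.0067 over 13 genes, with Frmd4b at 0.26 (0.0033 without array 48) and the polarity kinase Mark1 at -0.23 (-0.077 without array 52). Further Crumbs genes (11) had a median of 0.023, with the Patj relative Mpdz at -0.32 and Amot, a partner of Patj, at 0.19 (0.015 without array 50). The 8 further Scribble genes had a median of 0.083, with Dlg4 at 0.25, above all controls in all treated arrays, and Dlg2 at 0.20, which were 0.16 and 0.067 without array 51. For 26 further tight junction genes the median was 0.0067, with Cldn15 at 0.34 and Cldn23 at 0.21, both dim, which were 0.22 without array 51 and -0.0083 without array 52. The 17 further adherens genes had a median of -0.057, with the actin linker Vcl (vinculin) at 0.24 beside Afdn. The 10 further gap junction genes had a median of 0.16, with the widespread connexin Gja1 at 0.32 (0.13 without array 53) and Gjb5 at 0.25, and 0 of the 10 lay above the array median in all controls. Desmosome genes (9) had a median of -0.070, with the cadherin Dsc2 at 0.25 (0.12 without array 53) and the plaque protein Pkp1 at 0.22 (0.11 without array 51). Genes of the apical domain (12) had a median of 0.033, with the brush border cadherin Cdhr2 at 0.40 and the membrane-actin linker Ezr at 0.19, which were 0.24 and 0.072 without array 51. None of these passed the adjusted threshold, where the lowest adjusted p by rank products was 0.773.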

How the data were processed

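The authors normalised the Clariom S arrays (100 ng RNA, biotin label) by RMA, and the deposited values are log2 levels per probe set with 2 decimals. The software version is not given in the sources used here. Array medians lay between 4.81 and 4.87. Arrays have no depth, and their number, 3 per group, limits the precision. No probe set was filtered out. A table of the platform's annotation paired 19572 probe sets with 1 symbol and left 2634 unnamed.

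Groups came from the sample titles. Rank products used all 9 treated and control pairs with 1000 seeded shuffles of gene order within each array. Limma 3.58.1 in R 4.3.3 gave standard errors and 95% intervals. Calls were made at 0.05 after Benjamini-Hochberg adjustment across the 22206 probe sets. On simulated data with 50 probe sets changed at each size, rank products recovered 3 at 0.5 log2 units and 49 at 1, and limma 5 and 43. Rank products gave 41 false calls there and limma 5. The simulation drew noise independently for each probe set and used fewer shuffles. It also held changes of 2 and 3 log2 units, which ease the adjusted threshold. It therefore cannot show how many changes of 0.5 or 1 log2 unit would be recovered on the real arrays. Python 3.11.15 did the rest.

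Members, lists and tests were chosen with earlier results of these data known. Each array was described for Crb3, Prkcz, members whose groups did not overlap, the 2 largest differences per complex and the main hepatocyte junction genes, and up to 2 genes per other list by the smallest rank products p. Alternatives were limma, the methods' t-test, the percentage of false positives, quantile normalization, cyclic loess, median centring, dropping the 25% or 50% of probe sets with the lowest mean, averaged probe sets and each array left out. The labels name no batch.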

Additional observations from a re-analysis of the deposited data

How the results depend on the processing

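No paired analysis was possible because the array numbers are not shared between the groups. The adjusted calls stayed at 0 members under the other tests, the normalizations and the filters. With each array left out, the members called lower by rank products ranged from 0 to 1, which was Cldn14 without array 51. The share of all probe sets called in those runs is not given here, and limma called 0 members in each of them. The members above all controls ranged from 1 to 4 and below from 1 to 5, where 8.25% to 10.4% and 8.82% to 11.2% of all probe sets were. With quantile normalization 2 members (Dlg5 and Ocln) lay above all controls and 1 (Jam3) below, where 4.6% and 4.78% of all probe sets did. With cyclic loess these were 2 (Dlg5 and Ocln) and 2 (Cldn4 and Jam3), beside 4.84% and 4.82%, and with median centring 2 (Cldn4 and Jam3) lay below, beside 7.59%. The median difference of the gap junction pair was -0.028 with quantile normalization and -0.024 with cyclic loess. That of the Par complex was -0.039 with cyclic loess, -0.097 with median centring and -0.0083 when the dimmer 50% of probe sets were dropped, which kept 4 of its 7 members.

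With arrays left out in turn, the median difference ranged from -0.098 to 0.018 over all members, from -0.12 to -0.005 for the Par complex, from -0.17 to 0.033 for Crumbs, from -0.012 to 0.21 for Scribble, from -0.12 to 0.0042 for tight junctions, from -0.073 to 0.11 for adherens junctions and from -0.12 to -0.065 for gap junctions. Small differences changed sign with the normalization: Gjb1 was 0.016 and Cldn1 0.0094 with quantile normalization, 0.017 and 0.021 with cyclic loess, and Prkcz was -0.0033 with median centring. Among the named members the ranges that crossed 0 were -0.19 to 0.11 for Crb3, -0.11 to 0.14 for Prkcz, -0.36 to 0.043 for Nectin2, -0.098 to 0.057 for Gjb1, -0.12 to 0.035 for Cldn1, -0.12 to 0.16 for Cldn3, -0.19 to 0.072 for Tjp1 and -0.21 to 0.062 for Prkci.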
